A study of Sus scrofa with 22 samples.

Results

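The core circadian clock genes were followed in the cerebellum of piglets that had undergone bile duct ligation (BDL) or a sham operation (SHAM). The set was 10 genes named by symbol: the activators CLOCK and NPAS2, the period genes PER1, PER2 and PER3, the cryptochromes CRY1 and CRY2, the REV-ERB receptors NR1D1 and NR1D2, and the output factor DBP. A row was a member when its pig Ensembl gene identifier mapped to one of these symbols, which gave 9 of the 10 genes among 31907 identifiers. All 9 passed the filter on low counts, beside 14994 genes tested in all. PER3 was not analysed here.

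In the circadian clock, CLOCK or its relative NPAS2 pairs with BMAL1 and activates genes that carry E-box elements, among them the period, cryptochrome and REV-ERB genes and DBP. Period and cryptochrome proteins then repress that activation, and the REV-ERB receptors repress the BMAL1 gene, so that over a day BMAL1 RNA runs opposite to REV-ERB and DBP RNA. The loop runs in most cells of the body, the cerebellum included, and PER1 also responds directly to glucocorticoid hormone. These relations are known mainly from mice and cultured cells.

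Pigs (Sus scrofa) were operated on at day 8 of life and followed for 3 weeks, and RNA of the cerebellum was sequenced from 11 BDL animals (7 female, 4 male) and 11 SHAM animals (5 female, 6 male). BDL closes the outflow of bile from the liver, and the sham operation leaves it open. The labels state no strain, litter, light schedule or hour of sampling, so no clock phase could be assigned to an animal. Each title carries an animal number, which ran from 400 to 421 without a gap. What the number follows (birth, surgery or sampling) is not stated either, and it is used below only as a number. BDL animals had a mean number of 409.7 ± 7.7 and SHAM animals 411.3 ± 5.2 (SD, n = 11 each), a difference within the spread (permutation test with 100000 resamples, two-sided p = 0.608). That test compares means only. The groups were not spread evenly over the numbers, with BDL animals more at both ends and SHAM animals more in the middle. BDL replicate 1, SHAM replicate 1 and BDL replicate 2 carried the numbers 400, 401 and 402.

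Gene counts per library ran from 14811464 to 20046909. The members were well counted, from 177 reads for NPAS2 in its lowest library to 4210 reads for CRY2 in its highest. Levels are given as CPM, the reads of a gene scaled to the size of its library. CPM does not correct for transcript length, so levels are compared between animals and not between genes. Markers of the labelled tissue were present in every library, with granule neuron markers summing to between 4654 and 5933 CPM.

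Within a gene, the spread between animals was widest for NR1D1, whose log2 CPM had an SD of 0.53 over the 22 animals. That was larger than the SD of 91.4% of the genes tested. PER2 followed with an SD of 0.39 and PER1 with 0.37, above 80.2% and 78.5% of genes. DBP had 0.27, CRY2 0.25, NR1D2 0.19, NPAS2 0.16 and CRY1 0.15. CLOCK had 0.12 and varied less than most genes: 14.3% of the genes tested had a smaller SD.

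**Figure D1:**
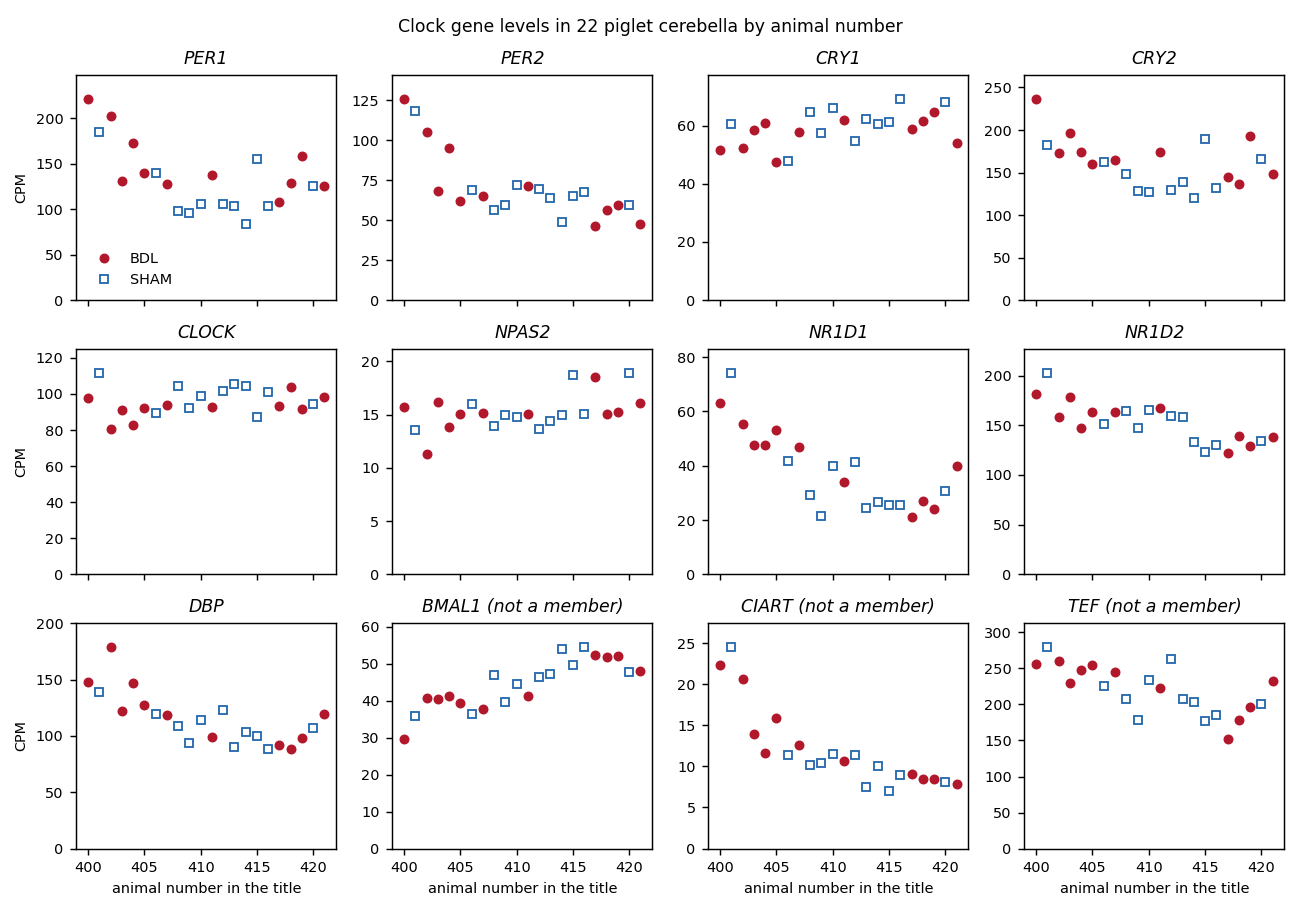
Level in CPM (vertical axis, from 0) of the 9 measured clock genes and of BMAL1, CIART and TEF against the animal number in the title (horizontal axis), with 1 point per animal, filled circles for BDL and open squares for SHAM. NR1D1, PER2, NR1D2, DBP and CIART are highest at the lowest numbers, BMAL1 is lowest there, and CLOCK is flat.

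Along the animal number, 3 of the 9 clock genes changed, and all 3 fell: PER2, NR1D1 and NR1D2. The test was edgeR's quasi-likelihood test of a linear trend, with sex and treatment as terms and Benjamini-Hochberg adjustment over all genes, and it called 0.0734% of the genes tested (11 of 14994; 0.0534% were lower and 0.02% higher). At an unadjusted p under 0.05 there were 8 of the 9 members, 6 lower and 2 higher, against 9.98% of all genes, 4.93% lower and 5.06% higher. The members had a median slope of -0.24 on the log2 scale per 10 animal numbers, and all genes tested had a median of 0.00. In bulk tissue, a lower value can come from fewer cells of a type or from less RNA per cell, and these cannot be told apart.

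Neither activator passed, and CLOCK moved little. CLOCK, the DNA-binding partner of BMAL1, lay between 87.3 and 105 CPM (median 98.5) in the animals numbered 411 to 421 and between 80.3 and 112 CPM (median 92.4) in those numbered 400 to 410. These ranges overlap almost wholly, and the slope was 0.03 ± 0.04 per 10 numbers (log2 ± SE, edgeR adjusted p = 0.876). NPAS2, which can stand in for CLOCK, lay between 13.6 and 18.9 CPM (median 15.1) at the higher numbers. At the lower ones it lay between 11.3 and 16.2 CPM (median 14.9). Its slope of 0.13 ± 0.06 did not pass (edgeR unadjusted p = 0.0309, adjusted p = 0.457).

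The period genes encode repressors of CLOCK and BMAL1. PER2 fell along the number: its lowest, median and highest values were 46.1, 59.6 and 71.2 CPM in the animals numbered 411 to 421, against 56.1, 68.9 and 126 CPM in those numbered 400 to 410. The slope was -0.47 ± 0.08 per 10 numbers, a factor of 0.720 (95% confidence interval 0.641 to 0.808, edgeR adjusted p = 0.0194). The high end belonged to the first 3 animals, at 126, 118 and 105 CPM, while the others ran from 46.1 to 94.9 CPM. PER1 had 83.7, 125 and 158 CPM at the higher numbers and 95.4, 139 and 221 CPM at the lower ones, with a slope of -0.26 ± 0.09 that did not pass (edgeR adjusted p = 0.361). Without the first 3 animals, the PER1 slope was -0.05.

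The cryptochromes, the second arm of repression, did not pass and had slopes of opposite sign. CRY1 had 54.0, 61.4 and 69.2 CPM in the animals numbered 411 to 421 and 47.5, 58.0 and 66.0 CPM in those numbered 400 to 410, a slope of 0.10 ± 0.05 per 10 numbers (edgeR adjusted p = 0.460). CRY2 had 121, 145 and 192 CPM at the higher numbers and 127, 164 and 237 CPM at the lower ones, a slope of -0.14 ± 0.07 (edgeR adjusted p = 0.482).

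The REV-ERB receptors are nuclear receptors that bind heme and repress BMAL1, and both fell. NR1D1 (REV-ERB alpha) had a lowest, median and highest value of 21.0, 26.7 and 41.4 CPM in the animals numbered 411 to 421, against 21.4, 47.5 and 74.2 CPM in those numbered 400 to 410. Its slope of -0.58 ± 0.11 per 10 numbers, a factor of 0.669 (0.573 to 0.780), was the steepest of the members (edgeR adjusted p = 0.0370). The first 3 animals had 63.2, 74.2 and 55.4 CPM, and no other animal exceeded 53.0 CPM. NR1D2 (REV-ERB beta) had 122, 134 and 167 CPM at the higher numbers and 147, 164 and 203 CPM at the lower ones, a slope of -0.24 ± 0.04 (edgeR adjusted p = 0.0194). NR1D2 thus changed less than NR1D1 per step, yet its slope was known with a smaller error.

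DBP, a transcription factor of the PAR bZIP family that carries the rhythm to output genes, stood just outside the threshold. It had 88.2, 99.3 and 123 CPM in the animals numbered 411 to 421 and 93.5, 122 and 179 CPM in those numbered 400 to 410. The slope was -0.29 ± 0.06 per 10 numbers (edgeR adjusted p = 0.0508), with the 12th smallest p of all genes tested. DBP was called with nearly the same slope by DESeq2 (adjusted p = 0.00357), and by edgeR with RLE size factors (0.0485), without the count filter (0.0367), without the sex term (0.0469) or without the treatment term (0.0435).

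**Figure D2:**
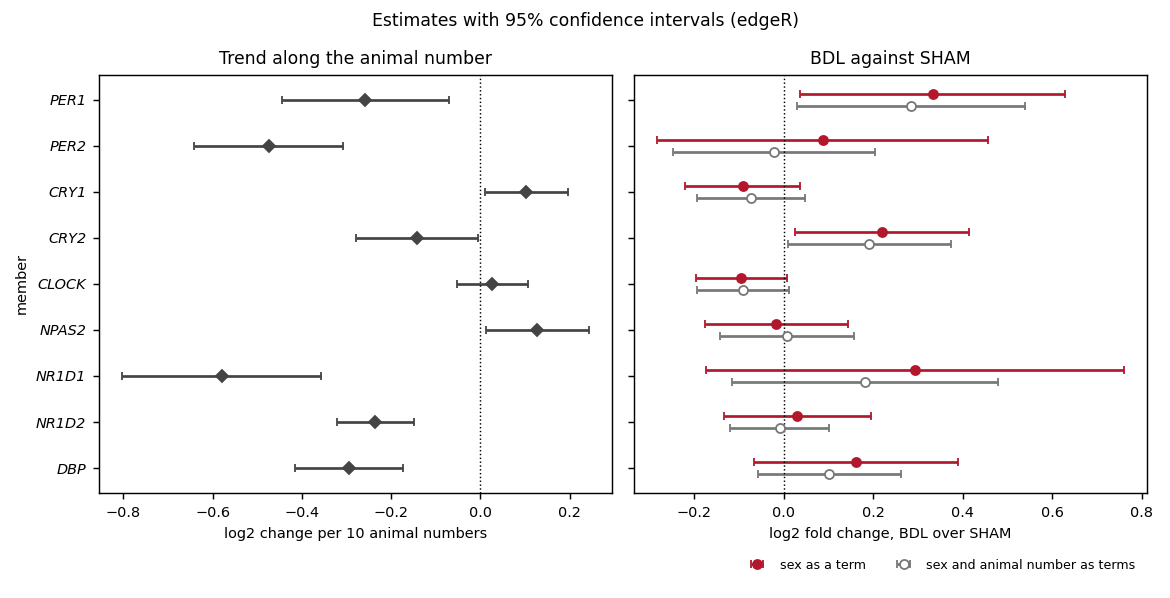
Estimates from edgeR with 95% confidence intervals for the 9 measured clock genes. Left, the log2 change per 10 animal numbers, where NR1D1 and PER2 lie farthest below 0; right, the log2 fold change of BDL over SHAM with sex as a term (filled) and with sex and animal number as terms (open), where the intervals of PER1 and CRY2 lie above 0 in both fits.

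The slopes had the same sign within BDL and within SHAM for 8 of the members, CLOCK being the exception at 0.07 and -0.06. Within BDL and within SHAM, the slope was -0.50 and -0.42 for PER2, -0.55 and -0.65 for NR1D1, -0.20 and -0.31 for NR1D2, and -0.31 and -0.26 for DBP. None of the members was called within either group alone (smallest edgeR adjusted p = 0.136, for PER2 in BDL). Within BDL 6 members were among 848 genes at an unadjusted p under 0.05, and within SHAM 4 were among 1147. The difference of the trend between BDL and SHAM was called for 0% of genes by edgeR and for 1 gene, not a member, by DESeq2. At an unadjusted p under 0.05 edgeR gave 624 genes (4.16%) and no member.

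The trend rested in part on the lowest numbers. Without the 3 lowest-numbered animals, edgeR called none of the genes tested. It gave 1228 genes at an unadjusted p under 0.05, 4 of the 9 members among them. The slope was then -0.27 for PER2 (adjusted p = 0.386), -0.43 for NR1D1 (adjusted p = 0.386), -0.21 for NR1D2 (adjusted p = 0.264) and -0.21 for DBP (adjusted p = 0.411). Single animals also ended calls. PER2 lost its call without BDL replicate 1 (edgeR adjusted p = 0.0983), SHAM replicate 1 (0.0564), BDL replicate 8 (0.0526) or BDL replicate 11 (0.0530). NR1D2 lost it without BDL replicate 1 (0.121), SHAM replicate 1 (0.0610), BDL replicate 8 (0.0526) or BDL replicate 10 (0.0675). NR1D1 lost it without any one of BDL replicates 1, 5, 6, 8, 9 and 10 or SHAM replicates 1, 2, 8 and 9, with adjusted p between 0.0547 and 0.124, and also without the count filter (adjusted p = 0.0686). All slopes of these genes kept their sign in the 22 such fits, and DBP was called when BDL replicate 3, 7 or 11 was left out, and likewise SHAM replicate 4, 7 or 11 (adjusted p between 0.00403 and 0.0498).

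As correlations with the animal number over 22 animals, Pearson's r was -0.79 for NR1D2, -0.76 for PER2, -0.75 for NR1D1 and -0.73 for DBP. Spearman's rho was -0.76, -0.73, -0.75 and -0.73 in the same gene order. Without the 2 animals farthest from the median number, r was -0.78 for NR1D2, -0.69 for PER2, -0.81 for NR1D1 and -0.79 for DBP. Among the 19 animals numbered 403 to 421, it was -0.73, -0.59, -0.61 and -0.59. These are the same values that the slopes describe and are no second test of them.

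NR1D1 lies at chromosome 12, 22263549 to 22274131 (Sscrofa11.1), where its RefSeq span overlaps THRA, a thyroid hormone receptor gene. No source used here states whether the counting used strand, so reads of the overlap cannot be assigned with certainty. THRA had a slope of 0.09 ± 0.04 (edgeR adjusted p = 0.439), opposite in sign to NR1D1. The spans of CRY1 (chromosome 5, 13275265 to 13429566) and CLOCK (chromosome 8, 54793323 to 54910192) also overlap other genes, MTERF2 and TMEM263 for CRY1 and TMEM165 for CLOCK. PER2 (chromosome 15, 137793419 to 137837854), NR1D2 (chromosome 13, 10756954 to 10791219), PER1 (chromosome 12, 53361863 to 53376723), CRY2 (chromosome 2, 16587101 to 16620380), NPAS2 (chromosome 3, 53298805 to 53490375) and DBP (chromosome 6, 53986955 to 53993044) overlap no other gene in that table.

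Of 15 measures of cell makeup, library quality and body weight, 1 moved with the animal number. The share of counted reads set aside for low alignment quality was between 3.98% and 5.21% in the animals numbered 411 to 421 and between 4.70% and 5.33% in those numbered 400 to 410 (r = -0.66, rho = -0.60, permutation p = 0.00059, adjusted p = 0.00885 over the 15 measures; r = -0.64 without the 2 farthest animals). The libraries of animals 419, 420 and 421 stood apart at 3.98%, 4.18% and 4.12%, and the lowest of the others had 4.69%. They also had the lowest shares of reads not aligned (3.49%, 3.31% and 3.19%). The correlation of the low-quality share with NR1D1 was 0.40, and its part in the trend was not tested. Of the 7 marker lists (granule neurons, Purkinje cells, oligodendrocytes, astrocytes, microglia, choroid plexus and blood), none had a member with an unadjusted p under 0.05 on the trend. Oligodendrocyte markers summed to between 10663 and 24515 CPM at the higher numbers and between 4929 and 27999 CPM at the lower ones. BDL replicate 2 (number 402) and SHAM replicate 1 (number 401), both among the 3 lowest numbers on which the trend rested in part, had the lowest of these sums, at 4929 and 7022 CPM, and the next lowest library had 9409 CPM. They also had the lowest astrocyte marker sums (3566 and 4487 CPM), the highest shares of reads outside annotated features (14.5% for each) and the lowest gene counts (15377014 and 14811464) of the 22 libraries. The part of these differences in the trend was not tested.

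Other genes of the clock, listed by name and outside the 10, were read against the members. Of 27 such genes 24 were tested, with 17 slopes below and 7 above 0, a median of -0.05, and 2 calls. Of all genes tested, 49.4% had a slope below 0 and 0.0734% were called. At an unadjusted p under 0.05 edgeR gave 9 of the 24, 7 lower and 2 higher, against 9.98% of all genes. CIART, a repressor of CLOCK and BMAL1 activity, fell: it had 6.99, 8.50 and 11.4 CPM (lowest, median, highest) in the animals numbered 411 to 421 and 10.1, 12.6 and 24.5 CPM in those numbered 400 to 410. Its slope was -0.68 ± 0.08 (edgeR adjusted p = 0.000243), the smallest p of all genes tested. BMAL1, the partner of CLOCK, rose, with 41.3, 49.8 and 54.5 CPM at the higher numbers and 29.6, 39.7 and 46.8 CPM at the lower ones, and a slope of 0.29 ± 0.04 (edgeR adjusted p = 0.00708). TEF, a relative of DBP, had a slope of -0.23 ± 0.06 (edgeR adjusted p = 0.177), and NFIL3, which represses the sites that DBP activates, one of 0.32 ± 0.09 (edgeR adjusted p = 0.225). CIART was called in each of the 22 fits that left out 1 animal, and BMAL1 in 21, the exception being without BDL replicate 1 (adjusted p = 0.0626). Without the 3 lowest numbers neither was called (adjusted p = 0.103 for CIART and 0.253 for BMAL1).

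The relations among members over animals were measured as correlations of log2 CPM, since each animal gives 1 time point. Of 36 pairs, 17 passed (permutation test with 100000 resamples, two-sided, Benjamini-Hochberg over the 36 pairs), 13 of them positive and 4 negative. The smallest absolute r called was 0.49, and 8.94% of the correlations of a member with any gene tested were at least that large. Over all 36 pairs, 19 were positive. By Spearman's rho 13 pairs passed.

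**Figure D3:**
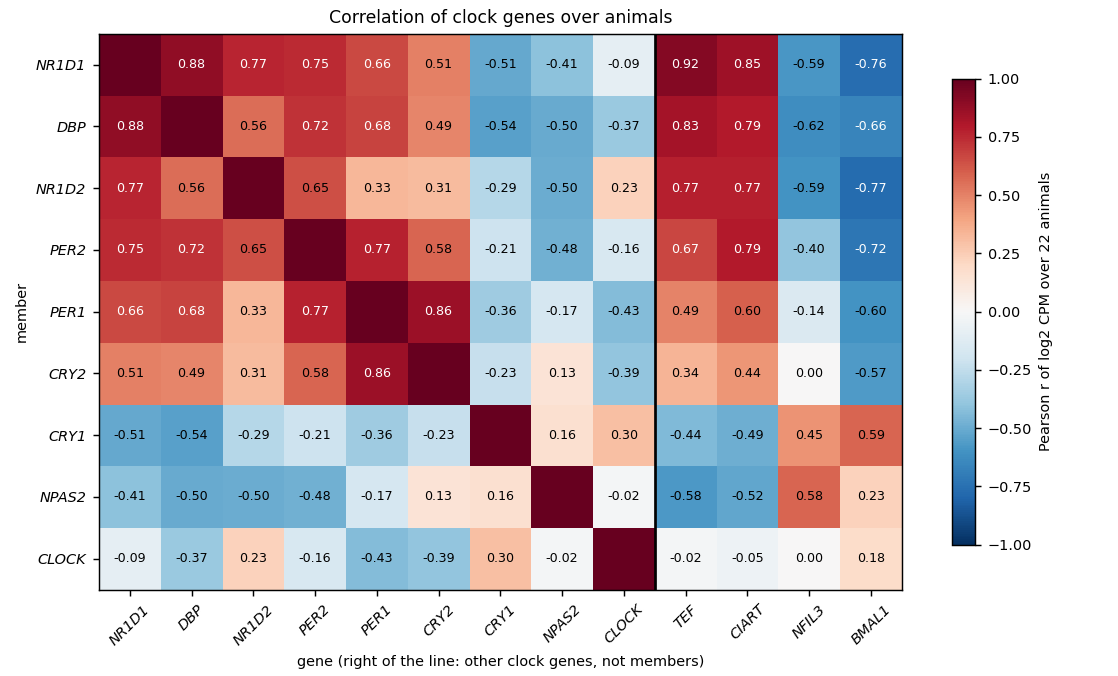
Pearson's r of log2 CPM over 22 animals between each measured clock gene (rows) and every other one (columns), with 4 other clock genes right of the black line; red is positive and blue negative. NR1D1, DBP, NR1D2, PER2, PER1 and CRY2 form a positive block, and BMAL1 is negative with each gene of that block.

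NR1D1 and DBP, both E-box targets, went together most closely, with r = 0.88 and rho = 0.91 (unadjusted p = 1e-05 for each, the smallest the permutations could give, and adjusted p = 0.00018). Without the 2 animals farthest from the median of NR1D1, r was 0.89. It was 0.87 in BDL and 0.93 in SHAM animals, 0.89 among the numbers 403 to 421, and 0.75 after sex, treatment and animal number had been removed from both genes. This pair thus stayed close where the animals with the highest levels were left out.

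PER1 and CRY2 formed the second close pair, with r = 0.86 and rho = 0.84 (adjusted p = 0.00018 for each, with the unadjusted p again at 1e-05). Without the 2 farthest animals r was 0.84, in BDL 0.72, in SHAM 0.91, among the numbers 403 to 421 0.84, and in the residuals 0.77. PER1 with PER2 had r = 0.77 and rho = 0.58 (adjusted p = 0.00024 for r and 0.0194 for rho). This relation leaned on few animals: r was 0.62 without the 2 farthest and 0.48 among the numbers 403 to 421, and 0.80 in the residuals of all 22. It was 0.92 in BDL animals and 0.76 in SHAM animals, where it did not pass (permutation test, adjusted p = 0.0505).

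PER2 was also tied to the REV-ERB genes and DBP, with r = 0.75 to NR1D1, 0.72 to DBP and 0.65 to NR1D2 (adjusted p = 0.00072, 0.00108 and 0.0044). After sex, treatment and animal number had been removed, these were 0.44, 0.38 and 0.15, and none passed. NR1D1 and NR1D2 had r = 0.77 and rho = 0.71 (adjusted p = 0.00036 and 0.00264), with 0.66 without the 2 farthest animals and 0.45 in the residuals, where it did not pass (adjusted p = 0.142). PER1 passed with NR1D1 (r = 0.66) and DBP (r = 0.68), and its r with NR1D2 was 0.33 and did not pass (adjusted p = 0.193). In the residuals r was 0.45 for PER1 with NR1D1 and 0.46 for PER1 with DBP, and among the numbers 403 to 421 it was 0.40 for each, none of which passed (adjusted p = 0.142 and 0.188).

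CRY1 was negative with DBP (r = -0.54, rho = -0.62, adjusted p = 0.0280 for r) and with NR1D1 (r = -0.51, rho = -0.53, adjusted p = 0.0402 for r). With NR1D2 its r was -0.29 and did not pass (adjusted p = 0.261). After sex, treatment and animal number had been removed, r was -0.24 with DBP, -0.21 with NR1D1 and 0.13 with NR1D2. Its paralog CRY2 was positive by r with both (r = 0.49 to DBP and 0.51 to NR1D1, adjusted p = 0.0455 and 0.0402). By rho, at 0.45 for each, neither passed (adjusted p = 0.0874 and 0.0861), and r was 0.16 and 0.22 in the residuals. CRY1 and CRY2 had r = -0.23 with each other (adjusted p = 0.376). NPAS2 was negative by r with DBP (r = -0.50) and NR1D2 (r = -0.50, adjusted p = 0.0402 for each). By rho neither passed (-0.23 with DBP, adjusted p = 0.388, and -0.37 with NR1D2, adjusted p = 0.168), and r was -0.24 and -0.20 in the residuals. NPAS2 with DBP had r = -0.28 without BDL replicate 2 (adjusted p = 0.303). Over the 22 sets of correlations that left out 1 animal, 10 of the 17 pairs passed each time and 7 did not. PER2 with CRY2 failed without BDL replicate 1 (adjusted p = 0.0981), CRY1 with DBP without BDL replicate 1, BDL replicate 2 or SHAM replicate 10 (0.0528 to 0.0592), and CRY1 with NR1D1 without any one of BDL replicates 1, 2, 5 and 10 and SHAM replicates 7 and 10 (0.0515 to 0.0724). NPAS2 with DBP failed without BDL replicate 2, 4 or 8 or SHAM replicate 1 (0.0617 to 0.303), and NPAS2 with NR1D2 without BDL replicate 8 or SHAM replicate 1, 3, 7, 9 or 11 (0.0512 to 0.118). CRY2 with NR1D1 failed in 11 of these sets and CRY2 with DBP in 16.

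Over all 22 animals CLOCK passed with no other member by r, and its largest absolute r was -0.43, to PER1 (adjusted p = 0.0846; rho = -0.52, adjusted p = 0.0376). Among the 19 animals numbered 403 to 421, its r was -0.76 to PER1 and -0.71 to CRY2, and both passed over the 36 pairs. In the same gene order r was -0.43 and -0.22 in BDL animals and -0.14 and -0.26 in SHAM animals. It was -0.22 and -0.18 in the residuals, and none of these passed. CLOCK with NR1D2 had r = 0.23 over all animals and 0.69 after sex, treatment and animal number had been removed, where it passed. For that pair r was -0.09 in BDL animals, 0.62 in SHAM animals and 0.08 among the numbers 403 to 421. CLOCK and NPAS2 had r = 0.65 in BDL animals and -0.75 in SHAM animals, against -0.02 over all 22. Neither passed over the 36 pairs within its group, and r was -0.33 among the numbers 403 to 421. BDL replicate 2 had the lowest NPAS2 of the BDL animals (11.3 CPM). SHAM replicate 1 had the highest CLOCK of the SHAM animals (112 CPM). The difference between the r of BDL and that of SHAM animals was not tested.

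**Figure D4:**
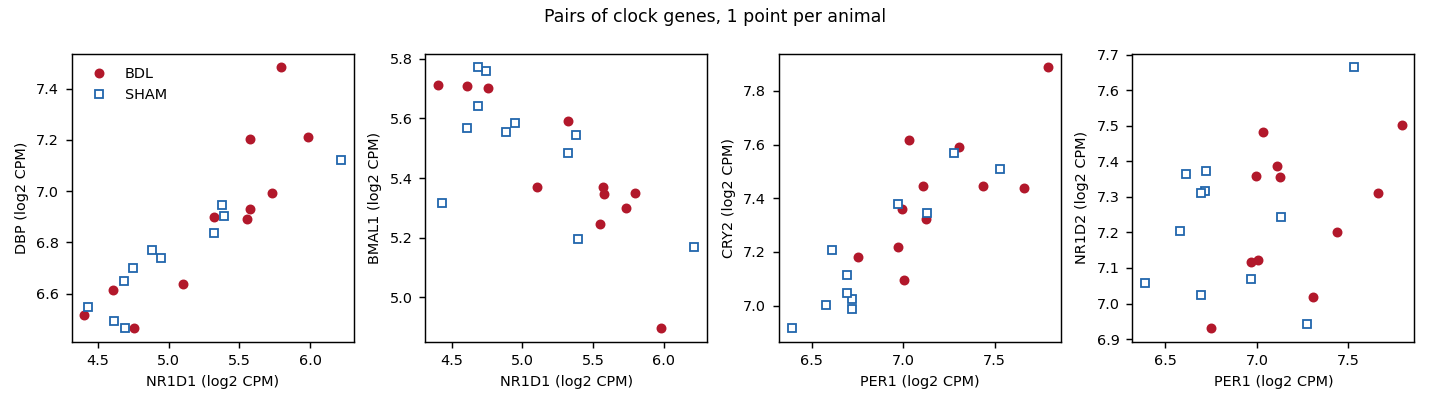
Log2 CPM of 4 gene pairs, 1 point per animal, filled circles for BDL and open squares for SHAM: NR1D1 with DBP (r = 0.88), NR1D1 with BMAL1 (r = -0.76), PER1 with CRY2 (r = 0.86) and PER1 with NR1D2 (r = 0.33). NR1D1 with DBP and PER1 with CRY2 show a narrow rising band, NR1D1 with BMAL1 a falling one, and PER1 with NR1D2 no clear band.

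Against the other clock genes, NR1D1 had r = 0.92 to TEF (rho = 0.89), 0.85 to CIART (rho = 0.82) and -0.76 to BMAL1 (rho = -0.75). NR1D2 had -0.77 to BMAL1, PER2 -0.72, DBP -0.66, PER1 -0.60 and CRY2 -0.57, whereas CRY1 had 0.59. CLOCK had 0.18 and NPAS2 0.23 to BMAL1, their partner. After sex, treatment and animal number had been removed, r to BMAL1 was -0.33 for NR1D1, -0.31 for NR1D2, -0.26 for PER2 and -0.11 for DBP. It was -0.36 for PER1, -0.40 for CRY2, 0.37 for CRY1, -0.05 for CLOCK and -0.42 for NPAS2. NR1D1 then had r = 0.86 to TEF and 0.57 to CIART. CIART, BMAL1 and TEF were all picked for their trend along the animal number, which most members share, so these relations are a description with no test.

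A first principal component of the 9 members held 52.3% of their variance and a second 18.9%. Weights on the first were 0.42 for NR1D1, 0.42 for DBP, 0.40 for PER2, 0.39 for PER1, 0.32 for NR1D2 and 0.32 for CRY2, against -0.25 for CRY1, -0.22 for NPAS2 and -0.15 for CLOCK. Its score was 4.37, 3.50 and 4.29 in the animals numbered 400, 401 and 402, and at most 2.33 in the others. On the second component CRY2, NPAS2 and PER1 (0.41, 0.47 and 0.30) stood opposite CLOCK and NR1D2 (-0.55 and -0.42).

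Among all genes with a symbol, the pattern most like NR1D1 over the 22 animals was that of TEF (r = 0.92), followed by DBP (0.88). For DBP these were NR1D1 and TEF (0.83), and for PER1 they were USP2 (0.90), a deubiquitinase gene with clock-driven expression in mice, and CRY2. CRY2 was most like PER1 and FOSB (0.82), an immediate early gene. PER2 was most like HIVEP1 and PLOD1 (0.81 for each), NR1D2 most like TENM3 (0.83) and FNDC3B (0.78), and CRY1 most like APPBP2 (0.79) and CLK1 (0.76). CLOCK was most like CHD9 and MTMR9 (0.87 for each) and NPAS2 most like GEM (0.84) and TLCD2 (0.83). None of the genes named here as nearest to PER2, NR1D2, CRY1, CLOCK and NPAS2 was a clock gene of the lists used. CIART came next for PER2 (0.79) and for NR1D2 (0.77).

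Between BDL and SHAM animals, no clock gene passed the test. edgeR's quasi-likelihood test with sex as a term called 0% of genes (0 of 14994) at an adjusted p under 0.05, and DESeq2 called 1, not a member. At an unadjusted p under 0.05, edgeR gave 4.96% of all genes and 2 of the 9 members, PER1 and CRY2. Both were higher in BDL, as were 2.23% of all genes. Fold changes of the members were above 0 in 6 and below 0 in 3, with a median log2 fold change of 0.09 against 0.00 for all genes.

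PER1 had a lowest, median and highest level of 108, 138 and 221 CPM in BDL animals and of 83.7, 105 and 185 CPM in SHAM animals, and the groups overlapped. The means were 150.1 ± 35.2 CPM in BDL and 118 ± 30.3 CPM in SHAM (SD, n = 11 each), a log2 fold change of 0.33 ± 0.14 (95% confidence interval 0.04 to 0.63, unadjusted p = 0.0293, edgeR adjusted p = 0.881). CRY2 had 137, 173 and 237 CPM in BDL animals and 121, 139 and 190.0 CPM in SHAM animals, a log2 fold change of 0.22 ± 0.09 (0.03 to 0.41, unadjusted p = 0.0280, edgeR adjusted p = 0.881). These are the genes of the second close pair above, so they are not independent of each other.

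NR1D1 had 21.0, 46.8 and 63.2 CPM in BDL animals and 21.4, 29.4 and 74.2 CPM in SHAM animals. Its log2 fold change was 0.29 ± 0.22, with an interval from -0.17 to 0.76 (edgeR adjusted p = 0.881). DBP had 0.16 ± 0.11 (-0.07 to 0.39), PER2 0.09 ± 0.18 (-0.28 to 0.46) and NR1D2 0.03 ± 0.08 (-0.13 to 0.20). CLOCK had -0.09 ± 0.05 (-0.20 to 0.01), CRY1 -0.09 ± 0.06 (-0.22 to 0.04) and NPAS2 -0.02 ± 0.08 (-0.18 to 0.14). The intervals of NR1D1 and PER2 were wide, and those of CLOCK, CRY1 and NPAS2 narrow.

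With the animal number as a further term, PER1 had a log2 fold change of 0.28 ± 0.12 (edgeR adjusted p = 0.772), CRY2 0.19 ± 0.09, NR1D1 0.18 ± 0.14, DBP 0.10 ± 0.08 and PER2 -0.02 ± 0.11. The standard error of PER2 was 0.18 without that term, and that of NR1D1 0.22. edgeR again called 0% of genes, with 6.1% of genes (2.81% higher) and again PER1 and CRY2, both higher, at an unadjusted p under 0.05, and DESeq2 called 1 gene, not a member.

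**Figure D5:**
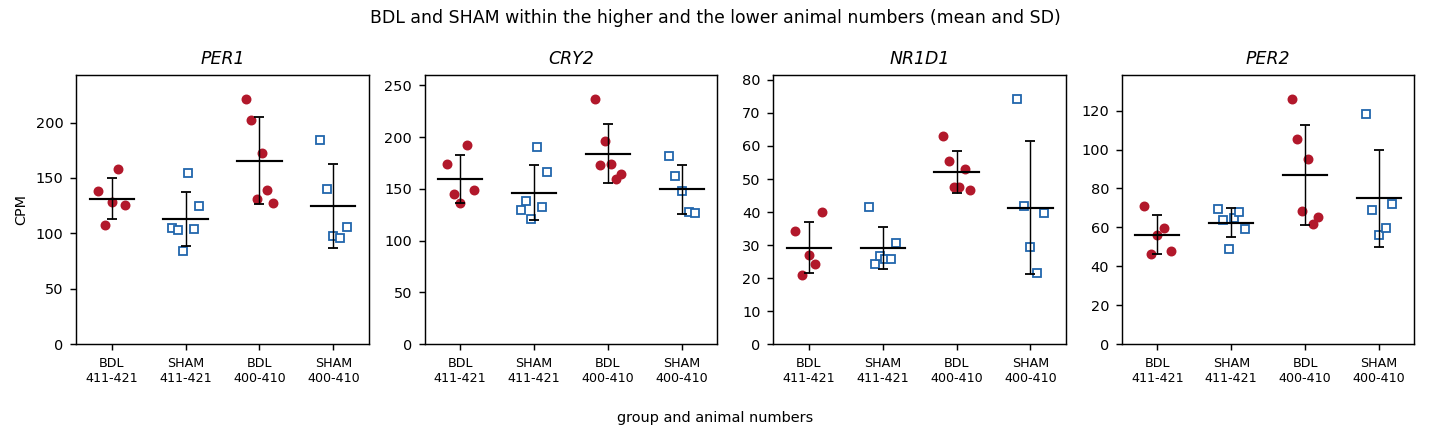
PER1, CRY2, NR1D1 and PER2 in CPM (vertical axis, from 0) in BDL and SHAM animals of the numbers 411 to 421 and of the numbers 400 to 410; points are animals, the long line is the mean and the error bar the SD (n = 5, 6, 6 and 5). BDL and SHAM overlap in both ranges of numbers for each gene, and NR1D1 in BDL is lower at 411 to 421 (21.0 to 39.9 CPM) than at 400 to 410 (46.8 to 63.2 CPM). For NR1D1 at 400 to 410 the overlap comes from SHAM replicate 1 alone (74.2 CPM). The other SHAM animals there lie at or below 41.9 CPM, under every BDL animal of that range.

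Within the numbers 411 to 421 and within 400 to 410, the log2 fold change of BDL over SHAM was 0.22 and 0.38 for PER1, and 0.12 and 0.29 for CRY2. For NR1D1 it was -0.00 and 0.37, for DBP -0.03 and 0.25, and for PER2 -0.15 and 0.18. These fits had no term for the animal number. BDL animals lay more at the lower numbers within 400 to 410 and more at the higher ones within 411 to 421. The part of the number in these values was not tested. PER1 in the numbers 411 to 421 was 138, 108, 128, 158 and 125 CPM in the 5 BDL animals, against 83.7 to 155 CPM (median 104) in the 6 SHAM animals. In the numbers 400 to 410 it was 127 to 221 CPM (median 156) in the 6 BDL animals, against 185, 140.1, 97.7, 95.4 and 105 CPM in the 5 SHAM animals. No member passed in either range of numbers (all edgeR adjusted p at least 0.900).

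In females and in males, the log2 fold change of BDL over SHAM was 0.52 and 0.10 for PER1, 0.36 and -0.25 for PER2, and 0.32 and 0.10 for CRY2. The difference of the BDL effect between the sexes did not pass for any member: for PER2 it was 0.61 ± 0.33 (female minus male, edgeR adjusted p = 0.917) and for PER1 0.42 ± 0.27 (edgeR adjusted p = 0.917). edgeR and DESeq2 each called 0% of genes for this difference, with 689 genes (4.6%) at an unadjusted p under 0.05 by edgeR and none of them a member.

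Female against male animals differed at 0.06% of genes (9 of 14994, edgeR), and no clock gene was among them. At an unadjusted p under 0.05 there were 5.95% of genes and no member. The largest absolute log2 fold change among the members was -0.11 ± 0.22, for NR1D1. Body weight, whose unit is not given, was tested per standard deviation beside sex and treatment, and 0% of genes were called by edgeR and 8 genes by DESeq2. At an unadjusted p under 0.05 edgeR gave 7.39% of genes. No member was among any of these, with an absolute slope of at most 0.09, for CRY2 (0.09 ± 0.05, edgeR adjusted p = 0.683).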

How the data were processed

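RNA of 22 cerebella was sequenced as 150 bp read pairs, per the labels' protocols. The deposited values are read counts per Ensembl gene, not normalized; the submitters' processing notes name Trim Galore, HISAT2, HTSeq, DESeq2 and the build Sscrofa11.1, without versions or a strand setting. The 5 lines of each table that name no gene held 29.9% to 34.6% of counted reads and were left out. Symbols were matched for 15029 of 31907 identifiers, and positions were looked up in RefSeq's gene table for that build.

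Genes were filtered with filterByExpr (minimum count 10, minimum total 15), scaled by TMM and tested in edgeR 4.0.16 (R 4.3.3, quasi-likelihood, robust), with DESeq2 1.42.0 as an alternative. A call is a Benjamini-Hochberg adjusted p under 0.05 over all genes tested, 14994 in the main fits. Filter and scaling were run again in fits that left out animals. Correlations and components used log2 CPM with a prior count of 2. Simulated data were used to test the trend fit, the fit of BDL against SHAM with animal number as a term, and the correlation test. The other fits and DESeq2 were not tested in this way. Depth was 14811464 to 20046909 gene counts per library.

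Groups came from the treatment label. No pair of libraries looked like 1 library deposited more than once (chi-square per degree of freedom 6.82 to 48.1 over 231 pairs). No label says whether animals shared a litter or a pen, so p-values measure the spread between these animals. Alternatives were RLE scaling, no filter, DESeq2, other covariates, subsets of animals and leaving out each animal. The members, gene lists and tests were chosen with earlier results of these data known. Named beside the members were up to 4 other clock genes with the smallest p in the trend and in BDL against SHAM, the 2 genes most like each member, and 3 glucocorticoid response genes; 1 gene that this rule names is not reported here.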

Additional observations from a re-analysis of the deposited data

Results flagged for a closer look

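Each member was tested in each group of 1 treatment and 1 sex for a sample far from the others. Of these 36 tests 4 found one, where chance gives about 1 in 20 for a single test. The tests share animals and are not independent. PER2 was at 118 CPM in SHAM replicate 1, the animal numbered 401, against 72.0 CPM in the next of the 6 SHAM males. NPAS2 was at 16.1 CPM in BDL replicate 11, against 15.2 CPM in the next of the 4 BDL males, a small gap in a narrow group. NPAS2 was at 18.7 CPM in SHAM replicate 9, against 15.1 CPM in the next of the SHAM males. NR1D2 was at 139 CPM in BDL replicate 11, the lowest of the BDL males, the next being at 164 CPM.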

How the results depend on the processing

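No paired analysis was possible because replicate numbers only count samples in accession order, and no label pairs a BDL with a SHAM animal.

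The count of trend calls, 11 with 3 members, was 55 with 4 members by DESeq2, 13 with 4 by RLE and 15 with 3 without the filter, where NR1D1 was not called (adjusted p = 0.0686) and DBP was (0.0367). It was 1 within BDL, 0 within SHAM, 1 between numbers 411 to 421 and 400 to 410, and 0 without the 3 lowest numbers, with 0 members in each of these 4. Leaving out each animal gave 1 (without BDL replicate 1) to 33 (without BDL replicate 2) genes and 0 to 4 members (0 without BDL replicate 1, BDL replicate 8 or SHAM replicate 1). DESeq2 called 1 gene for BDL against SHAM, 1 with the number as a term, 1 for the difference of the trend, 8 for body weight and 23 for female against male. The female against male count was 31 without the filter and 26 without the 3 lowest numbers. Leaving out animals, it ran from 7 to 26, body weight from 0 to 9 and the difference of the trend from 0 to 1. The 17 member pairs became 4 within BDL, 2 within SHAM, 5 without the 3 lowest numbers, 4 on residuals and 12 to 17 leaving out animals. The cause of these changes was not tested. Slopes and fold changes that turned were near 0 or in small groups: within 411 to 421, BDL over SHAM was -0.15 for PER2, 0.0034 for NPAS2, -0.0025 for NR1D1, -0.0076 for NR1D2 and -0.029 for DBP; within males -0.25 for PER2 and 0.019 for NPAS2; without the 3 lowest numbers 0.0041 for NPAS2 and, with number as a term, 0.017 for NR1D2; the trend of CLOCK within SHAM was -0.063. Leaving out animals, NPAS2 ran from -0.045 to 0.029, and with number as a term NPAS2 from -0.018 to 0.035, NR1D2 from -0.030 to 0.011 and PER2 from -0.064 to 0.030.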

Other observations

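The clock genes outside the 10 were also read for BDL against SHAM. Of 24 tested, 10 were above and 14 below 0, with a median log2 fold change of -0.02, and edgeR called none. The 3 with the smallest p were GSK3B, a kinase that acts on clock proteins (-0.14 ± 0.06), TIPIN (-0.14 ± 0.08) and USP2 (0.13 ± 0.07), each with an edgeR adjusted p of 0.881.

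Glucocorticoid response genes, of which 8 of 11 were tested and PER1 is one, had 4 slopes above and 4 below 0 along the animal number, and none was called by edgeR. The 3 with the smallest p were ZBTB16 (-0.67 ± 0.16, edgeR adjusted p = 0.131), FKBP5 (-0.20 ± 0.06, edgeR adjusted p = 0.309) and PER1. ZBTB16 lay between 2.34 and 11.05 CPM (median 4.40) in the animals numbered 411 to 421 and between 4.22 and 12.5 CPM (median 8.62) in those numbered 400 to 410. FKBP5 lay between 15.1 and 20.9 CPM (median 18.9) at the higher numbers and between 18.3 and 27.6 CPM (median 22.1) at the lower ones.

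Of the 11 genes called on the trend, 5 were clock genes by name (PER2, NR1D1, NR1D2, CIART and BMAL1) and 3 had no symbol. The other 3, named here after their values were seen, were ENAH, an actin regulator (-0.27 ± 0.05, edgeR adjusted p = 0.0208), LIN7B (0.30 ± 0.06, edgeR adjusted p = 0.0370) and PRKAR1B, a regulatory subunit of protein kinase A (0.21 ± 0.04, edgeR adjusted p = 0.0370).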
